A study of Homo sapiens with 17 samples.

Results

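Regions that lie over exons of 2 or more genes on the same strand numbered 1097 of 110260 in LNCaP cells, 963 of 77311 in 22Rv1 cells and 1194 of 139373 in HPr1AR cells, or 3254 of 326944 in all (0.995%). A region is a run of neighbouring sequence windows in which an m6A pull-down was set against an IgG pull-down of the same line. It was a member when the gene marks deposited beside it named exons, or exons at a promoter, of at least 2 different symbols, all on one strand. Readthrough genes, small RNA genes nested in a host transcript and gene clusters that share exons meet this rule. The members carried 923 different sets of symbols and 1734 symbols; 3091 regions named 2 symbols and 163 named more, up to 22. Whether reads were counted by strand is not given in the sources used here, and the reads of a region cannot be divided between the genes it names.

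RNA carrying N6-methyladenosine (m6A) was pulled down with an m6A antibody kit from 3 prostate lines, with unspecific immunoglobulin G (IgG) as the background pull-down. LNCaP and 22Rv1 are prostate cancer lines, the first dependent on androgen and the other derived from a xenograft that relapsed after castration, and HPr1AR are immortalised non-malignant prostate cells carrying the androgen receptor. All cells were wild type and vehicle-treated, and the cancer lines grew in serum-containing medium while HPr1AR grew in serum-free keratinocyte medium, so line and medium cannot be told apart. The labels give 17 samples: 3 m6A and 3 IgG samples in LNCaP, 2 m6A and 3 IgG samples in 22Rv1, and 3 m6A and 3 IgG samples in HPr1AR. Each deposited table combines the samples of its line into 1 row per region, so replicate error is unknown, the number of samples behind a row is not stated, and all intervals cover counting error only. Exon regions of the prostate-specific antigen gene KLK3 numbered 2 in LNCaP, 4 in 22Rv1 and 0 in HPr1AR, and those of the basal keratin gene KRT5 numbered 0, 0 and 2 in the same order.

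The methyltransferase pair METTL3 and METTL14 places m6A on RNA as it is made, mostly within a short sequence context around GAC, and the mark is known to lie near stop codons, in last exons and in long internal exons. Reader proteins of the YTH family bind it and alter the decay and translation of the RNA. A readthrough gene is transcribed from one gene into the next on the same strand and shares exons with both partners. Many microRNAs and most small nucleolar RNAs are cut from a longer host transcript, and m6A on primary microRNA transcripts is known to aid their recognition by DGCR8, the partner of the nuclease Drosha.

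The members named 133 microRNA genes, of which 127 were matched by symbol in RefSeq. The following mature sequences belong to some of the 35 genes whose host regions had more m6A than IgG reads in all 3 lines. Each is printed 5′ to 3′ with its seed, bases 2 to 8, in capitals. All printed microRNA sequences are RefSeq entries of build GRCh38.p14.
miR-1182: gAGGGUCUugggagggaugugac
miR-4737: aUGCGAGGaugcugacagug
miR-4292: cCCCUGGGccggccuugg
miR-922: gCAGCAGAgaauaggacuacguc
miR-5006-5p: uUGCCAGGgcaggagguggaa
miR-210-3p: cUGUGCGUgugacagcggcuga
miR-1306-3p: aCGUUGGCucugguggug
miR-3618: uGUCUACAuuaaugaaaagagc

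A second set was picked from the 12 microRNA genes whose regions were listed in both cancer lines and not in HPr1AR. MiR-106b-5p and miR-93-5p share their seed, while the seeds of miR-141-3p and miR-200c-3p differ from each other.
miR-141-3p: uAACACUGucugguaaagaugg
miR-200c-3p: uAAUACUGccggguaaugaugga
miR-106b-5p: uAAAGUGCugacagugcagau
miR-93-5p: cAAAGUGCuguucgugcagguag
miR-25-3p: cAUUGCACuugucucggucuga

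A further set was picked from the 22 microRNA genes whose regions were listed in HPr1AR and in neither cancer line. MiR-221-3p and miR-222-3p share a seed, as do miR-29a-3p and miR-29b-3p.
miR-205-5p: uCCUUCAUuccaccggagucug
miR-221-3p: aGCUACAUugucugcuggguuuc
miR-222-3p: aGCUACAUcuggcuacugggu
miR-29a-3p: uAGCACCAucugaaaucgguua
miR-29b-3p: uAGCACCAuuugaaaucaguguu
miR-21-5p: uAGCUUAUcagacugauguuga
miR-22-3p: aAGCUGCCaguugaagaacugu

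Among the 118 hairpins of member microRNA genes in RefSeq, 44 (37.3%) held the letters GGAC on the RNA strand, the only strand searched, against 27.3% of all 1560 hairpins. The hairpins were 47 to 131 bases long, far shorter than the regions, whose median width was 1730 bp in LNCaP, 1480 bp in 22Rv1 and 2330 bp in HPr1AR for the small RNA class. A region's reads can therefore lie outside the hairpin.

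The first question was how many of these regions held more m6A than IgG reads. Reads of the window that represents each region were rebuilt from the deposited log2 fold and p-value. Reads given for a region, here and below, are those of this 1 window, and its other windows can hold IgG reads. A two-sided exact binomial test set the m6A share of the rebuilt reads against the share that the rebuilt depths give. P-values were adjusted by Benjamini-Hochberg over the whole table of a line, with a threshold of 0.05. Where the deposited p was 0, the smallest pair of reads that could give it was used, called a smallest pair below, and its ratio has no upper limit. For regions with 0 IgG reads, a ratio given below as at least a value is the ratio with 3 reads in place of 0. That value is not the lower 95% limit, which lies below it. For DNAJC25 in 22Rv1 the limit was 4.78 and the value 5.11. In LNCaP 595 of the 1097 members were higher in m6A (54.2%), against 36.5% of all regions. In 22Rv1 558 of 963 were higher (57.9%), which was near the 54.4% of all regions. In HPr1AR 691 of 1194 were higher (57.9%), against 38.0% of all regions. At an adjusted p of 0.01 the members' shares were 48.0%, 50.8% and 50.75% in the same order, against 30.1%, 46.2% and 31.8% of all regions. Members lower in m6A numbered 2 in LNCaP, 7 in 22Rv1 and 3 in HPr1AR, where lower regions made up 0.111%, 0.753% and 0.0911% of all regions. The method seldom finds lower regions. Of simulated regions set 2 log2 units lower, it called 1% in LNCaP, 9% in 22Rv1 and 2% in HPr1AR. Of those set 2 units higher it called 64.5%, 75% and 68%. Of those set with no change it called 0.962%, 1.08% and 0.731% higher. The binomial test makes no correction for which window of a region is the representing one. Simulated regions held fewer windows than most members. Few or no lower calls, here and in the classes below, thus do not show that few regions were lower. The counts could not be settled for 23 members of LNCaP, 0 of 22Rv1 and 2 of HPr1AR. The authors' deposited table put 98.9%, 99.9% and 99.4% of members under an adjusted p of 0.05 in the same order, beside 95.4%, 99.3% and 96.5% of all regions, so that call does not separate them.

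The median log2 read ratio, m6A over IgG with each divided by its depth, was 1.87 over the members of LNCaP, 1.96 in 22Rv1 and 1.93 in HPr1AR. Over all regions it was 1.18, 2.10 and 1.22, so members of 22Rv1 sat below the median of their table. The median over regions on exons of a single gene was 1.26, 1.75 and 1.35, and over regions on exons of opposite-strand genes 2.98, 3.06 and 3.00. Relative to the median of all regions, 35.8% of members were higher and 7.29% lower in LNCaP, 21.2% and 20.4% in 22Rv1, and 35.6% and 6.45% in HPr1AR. The same centring made 21.2%, 15.8% and 21.5% of all regions higher.

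Members were wider than single-gene exon regions, with a median of 82 windows in LNCaP, 63 in 22Rv1 and 74 in HPr1AR against 30, 26 and 29. Wide regions more often pass the test, which makes no correction for the number of windows in a region. Regions were therefore also set side by side within width classes. Among regions of more than 120 windows, 82.1% of members were higher in LNCaP, 83.3% in 22Rv1 and 84.0% in HPr1AR, beside 83.25%, 86.8% and 82.8% of single-gene exon regions. For 61 to 120 windows the members gave 53.6%, 65.4% and 62.8%, beside 60.05%, 71.9% and 62.9% of the single-gene regions. For 1 to 10 windows they gave 8.85%, 13.6% and 7.38%, beside 4.90%, 11.6% and 6.23%. The members thus followed the single-gene regions within 10 percentage points in each of these classes, and the opposite-strand regions stood above both in every class, as the plot by width shows. The part that width plays in the overall difference was not tested.

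**Figure D1:**
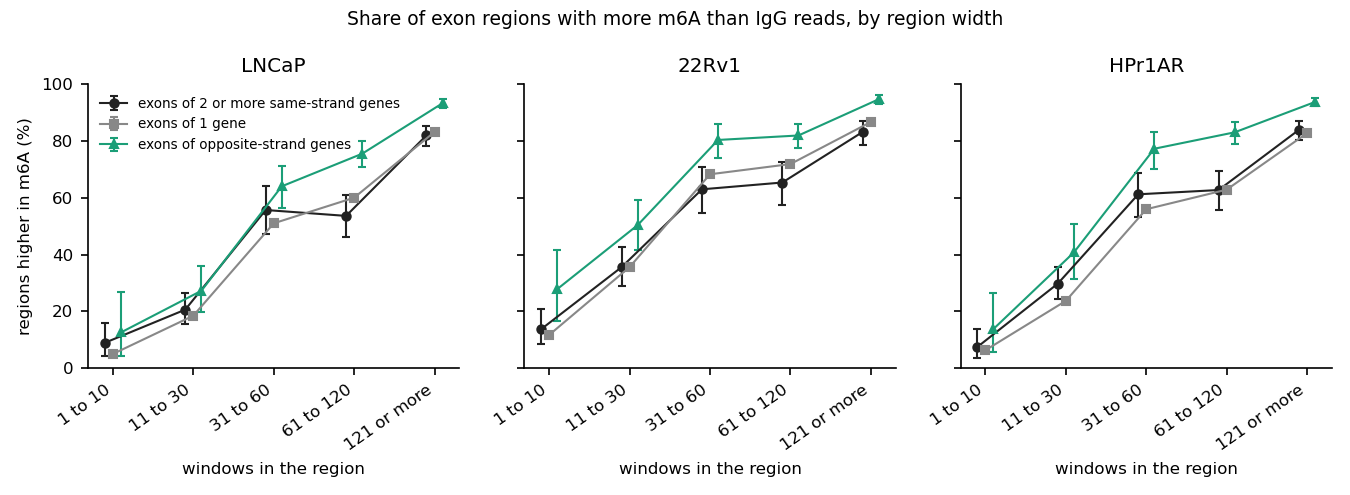
Share of regions called higher in m6A (percent, vertical axis) against the number of windows in the region, for regions over exons of 2 or more same-strand genes (black), of 1 gene (grey) and of opposite-strand genes (green), in LNCaP, 22Rv1 and HPr1AR. Bars are 95% exact binomial intervals over regions. In regions of more than 120 windows, 82.1% to 84.0% of the same-strand members were higher, while shares of 7.38% to 13.6% were seen at 1 to 10 windows.

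Where a region sat in its genes went with its call and with its width. Regions that held the last listed exon of a gene that did not start there, together with the start of another gene, numbered 223 in LNCaP, 204 in 22Rv1 and 224 in HPr1AR, and 80.3%, 83.3% and 82.6% of them were higher. The other regions with a gene's last listed exon, among them regions where every named gene started, were higher in 56.1%, 57.4% and 62.8%. Regions with no last exon, which lay over starts as well as inner exons, were higher in 37.0%, 43.9% and 40.6%. Median widths differed as well, at 245, 206 and 243.5 windows for the first kind and 31, 22 and 29 windows for regions with no last exon. A last exon here means that no further exon of that gene was listed downstream within 10000 bp. Members whose exon marks held no promoter mark were higher in 39.95%, 46.8% and 40.9%. Of all regions 36.5%, 54.4% and 38.0% were higher. Members without a promoter mark were also narrower than members as a whole, at 34, 27.5 and 33 windows at the median.

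**Figure D2:**
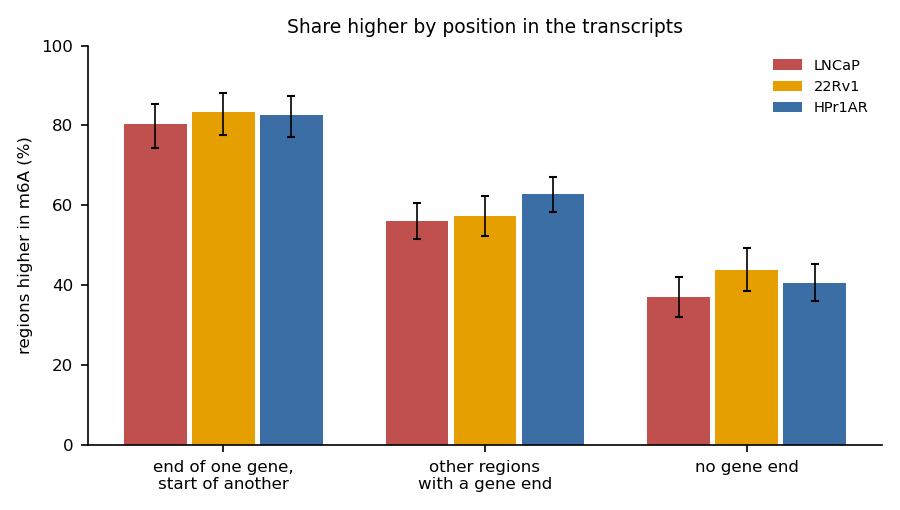
Share of same-strand exon regions called higher in m6A (percent) by position in the transcripts, for LNCaP (red), 22Rv1 (orange) and HPr1AR (blue); bars on the columns are 95% exact binomial intervals over regions. Regions that join a gene's end and another's start lie at 80.3% to 83.3%, above regions without a gene end at 37.0% to 43.9%. The first kind is also wider, at medians of 206 to 245 windows against 22 to 31.

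Readthrough genes formed 368 members in LNCaP, 313 in 22Rv1 and 402 in HPr1AR, from 98 readthrough genes, of which 84 were listed in all 3 tables. In LNCaP 165 of these regions were higher (44.8%), in 22Rv1 169 (54.0%) and in HPr1AR 194 (48.3%), and none was lower at the threshold. Of all regions 36.5%, 54.4% and 38.0% were higher, so the 22Rv1 share was near that of its table. At least 1 higher region was found for 81, 79 and 86 readthrough genes, 74 of them shared by all lines, and 9 had none in any table. Such a count was not made for other genes. Regions shared with the upstream partner were higher in 45.0%, 54.7% and 53.9% of cases, and those shared with the downstream partner in 43.2%, 52.4% and 43.0%.

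RTEL1, a helicase gene that maintains telomeres, shares most of its exons with the readthrough gene RTEL1-TNFRSF6B, whose other partner encodes the decoy receptor TNFRSF6B. This locus on chromosome 20 had 6 regions in LNCaP, 9 in 22Rv1 and 9 in HPr1AR, of which 5, 6 and 8 were higher. The region from 62309371 to 62312570 held 42 m6A reads against 2 IgG reads in LNCaP, a log2 ratio of 5.57 (95% interval 3.63 to 8.66). The matching region held 46 m6A reads against 1 IgG read in 22Rv1 (6.07, interval 3.52 to 11.4) and 54 against 3 in HPr1AR (5.36, interval 3.74 to 7.68). Farther downstream, from 62320481 to 62324830, LNCaP had a smallest pair of 65 m6A and 0 IgG reads. The ratio there was at least 5.62 at a floor of 3 IgG reads. Toward the 5′ end, at 62292501 to 62293310, LNCaP had 6 m6A and 9 IgG reads, and the regions of all 3 lines there were not called. The regions over both RTEL1 and TNFRSF6B were higher in 22Rv1, with 35 m6A against 4 IgG reads, and in HPr1AR, while LNCaP listed none.

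ARHGAP8 shares its exons with the readthrough gene PRR5-ARHGAP8 on chromosome 22. Of its 10 regions in LNCaP, 6 in 22Rv1 and 9 in HPr1AR, 3, 3 and 4 were higher. The last-exon region was among them in each line: in 22Rv1, from 45258141 to 45258590, it held 62 m6A and 6 IgG reads (log2 ratio 3.92, interval 2.71 to 5.42). Its smallest pair of reads was 60 m6A and 14 IgG in LNCaP (lower limit 2.42) and 64 and 6 in HPr1AR (lower limit 3.405). The next region upstream, from 45255641 to 45255670 in 22Rv1, was not called in any line, with 3 m6A against 8 IgG reads in LNCaP, 1 against 6 in 22Rv1 and 6 against 4 in HPr1AR. The calls thus differed between regions of the locus, with the last-exon region higher in all 3 lines. The uncalled region next to it held few reads.

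**Figure D3:**
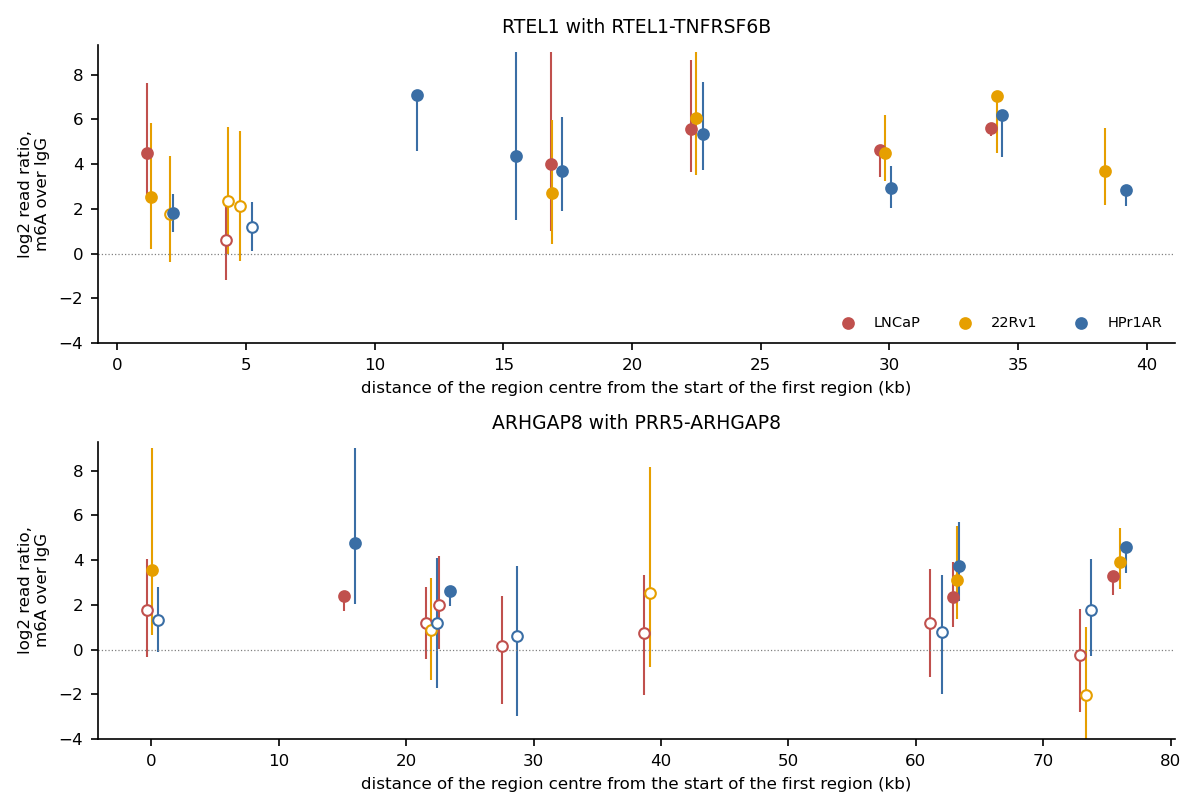
Log2 read ratio, m6A over IgG, of each region at RTEL1 with RTEL1-TNFRSF6B (top) and ARHGAP8 with PRR5-ARHGAP8 (bottom), against the distance of the region's centre from the start of the first region in kb. Filled points were higher in m6A, open points were not; lines are 95% exact intervals, cut at 9, with no upper end where IgG reads or p were listed at 0. At RTEL1 5 of 6 regions in LNCaP, 6 of 9 in 22Rv1 and 8 of 9 in HPr1AR are filled.

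Other readthrough loci also had higher and uncalled regions within one locus. Some uncalled regions held few reads, and the reads cannot be assigned to the readthrough transcript or to its partners. AARSD1, which encodes an alanyl-tRNA editing enzyme, and PTGES3L-AARSD1 had 5 regions in LNCaP, 4 in 22Rv1 and 6 in HPr1AR on chromosome 17. In each line the region near 41116161 to 41116870 was the only one higher, with 54 m6A against 5 IgG reads in LNCaP (4.61), 47 against 0 in 22Rv1 (at least 4.52) and 29 against 1 in HPr1AR (6.05, interval from 3.46). DNAJC25 with DNAJC25-GNG10 was higher over the co-chaperone gene DNAJC25, at chromosome 9 from 114393601 to 114395530 with 71 m6A and 0 IgG reads in 22Rv1 (at least 5.11). Over the G protein gamma subunit gene GNG10 of the same readthrough gene, no region was called in any line, with 2 m6A against 8 IgG reads in 22Rv1.

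The purinergic receptor gene P2RX5 with P2RX5-TAX1BP3 had 41 m6A against 0 IgG reads on chromosome 17 from 3580371 to 3583060 in LNCaP (at least 4.95). In 22Rv1 the overlapping, shorter region held 18 m6A and 5 IgG reads (2.40, adjusted p 0.00151 by the exact binomial test). NT5C1B, a cytosolic nucleotidase gene, was listed with NT5C1B-RDH14 in HPr1AR alone, with 51 m6A and 0 IgG reads on chromosome 2 from 18767561 to 18768780 (at least 5.28). The retinol dehydrogenase gene RDH14 of the same readthrough gene was higher in all 3 lines, with a log2 ratio of 5.07 in 22Rv1 from 69 m6A and 3 IgG reads. PABPN1, the nuclear poly(A)-binding protein gene, with BCL2L2-PABPN1 had a smallest pair of 60 m6A and 0 IgG reads in LNCaP on chromosome 14 from 23789031 to 23792200. Its 22Rv1 counterpart held 67 m6A and 27 IgG reads (1.86, interval from 1.19), so both were higher with ratios far apart.

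CENPS-CORT with CORT and TMED7-TICAM2 with TICAM2 were among the 6 symbol sets whose lowest limit over the lines was highest. CORT encodes the neuropeptide cortistatin, and its region on chromosome 1 held 43 m6A against 0 IgG reads in 22Rv1 (at least 4.39) and 52 against 1 in HPr1AR (6.89, interval from 4.35). TICAM2, an adaptor of Toll-like receptor signalling, had 32 m6A against 0 IgG reads in LNCaP (at least 4.59) and 84 against 2 in 22Rv1 (5.94, interval 4.04 to 9.01). The part of the readthrough gene shared with TMED7, a cargo receptor of the secretory pathway, was also higher in its 3 regions in every line, with log2 ratios from 1.18 to 2.65.

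**Figure D4:**
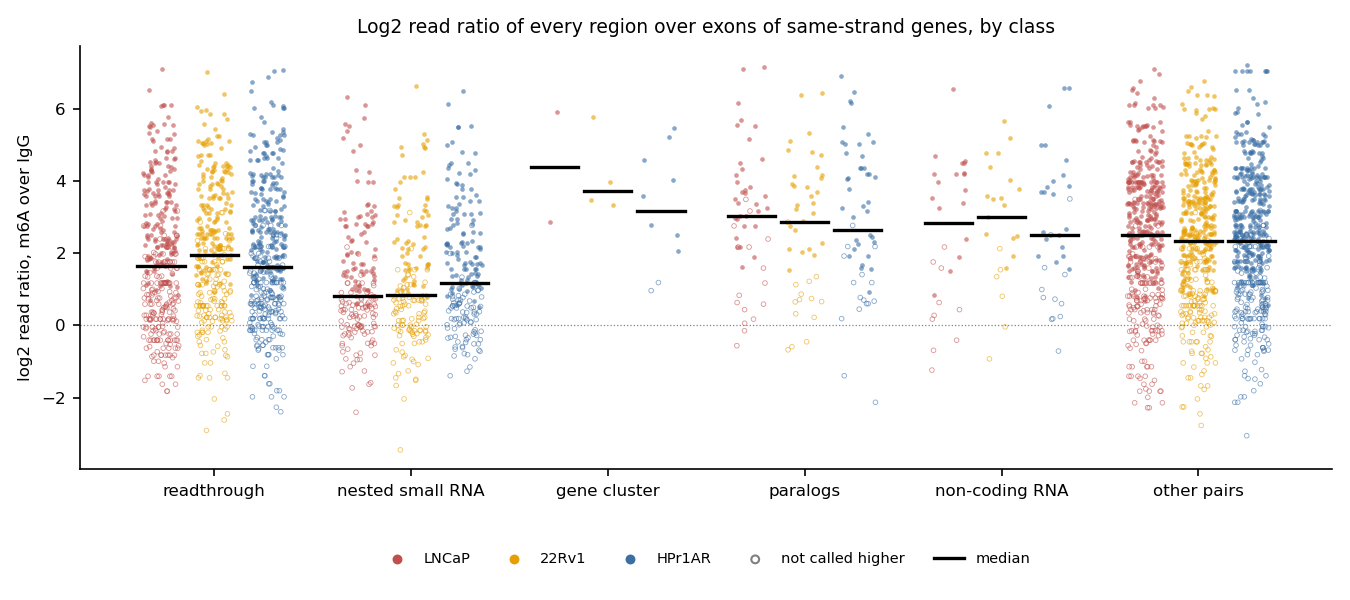
Log2 read ratio, m6A over IgG, of every region over exons of same-strand genes by class, for LNCaP (red), 22Rv1 (orange) and HPr1AR (blue). Filled points were higher in m6A at an adjusted p of 0.05, open points were not, and black lines are medians. The median of nested small RNA regions is the lowest of the 6 classes in each line, at 0.81, 0.84 and 1.18.

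Regions that named a small RNA gene beside another gene numbered 189 in LNCaP, 167 in 22Rv1 and 198 in HPr1AR. Whether the small RNA lay in an exon or an intron of the other gene, called its host here, was not read. The kind of small RNA went with the result. Of microRNA regions 55 of 91 were higher in LNCaP (60.4%), 47 of 83 in 22Rv1 (56.6%) and 75 of 104 in HPr1AR (72.1%), and none was lower. Of regions with small nucleolar RNAs (snoRNAs), which guide modification of ribosomal RNA, 21 of 92 were higher in LNCaP (22.8%), 19 of 76 in 22Rv1 (25%) and 33 of 87 in HPr1AR (37.9%). The shares of all regions were 36.5%, 54.4% and 38.0%, near the microRNA share in 22Rv1 and the snoRNA share in HPr1AR. Median log2 ratios were 1.40, 1.595 and 1.92 for microRNA regions and 0.33, 0.14 and 0.55 for snoRNA regions. Among regions of more than 120 windows the snoRNA share was 33.9%, 32.4% and 56.4%, below the 71.9%, 68.1% and 78.1% of microRNA regions and the 83.25%, 86.8% and 82.8% of single-gene exon regions. The difference between the kinds was not tested.

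IgG reads moved with this difference. Regions with box C/D snoRNAs held a median of 29, 28.5 and 34 IgG reads in LNCaP, 22Rv1 and HPr1AR, regions with box H/ACA snoRNAs 38, 21 and 39.5, and microRNA regions 14, 12 and 16. The other exon regions of the snoRNA hosts, which name no small RNA, were higher in 27.9%, 30.9% and 32.2%, close to the snoRNA regions themselves, while those of microRNA hosts were higher in 31.5%, 31.1% and 33.8%. Those host regions were narrower, with 29 to 46 windows at the median for snoRNA hosts and 30.5 to 39 for microRNA hosts. The part of IgG reads and of host level in the low shares was not tested.

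**Figure D5:**
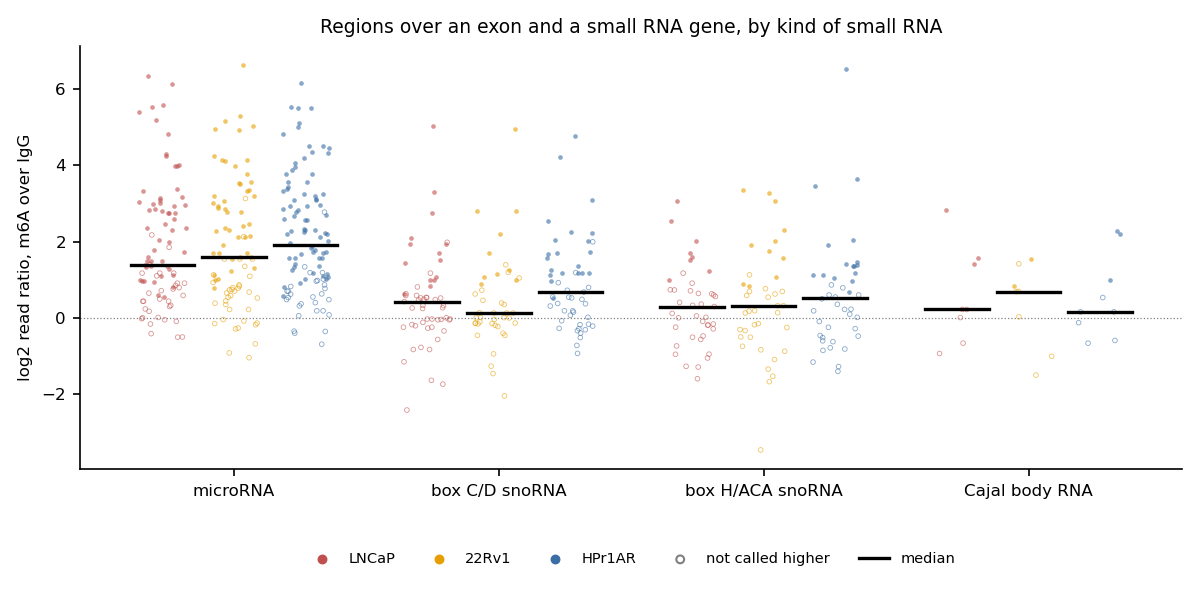
Log2 read ratio, m6A over IgG, of regions over a host exon and a small RNA gene, by kind of small RNA, in LNCaP (red), 22Rv1 (orange) and HPr1AR (blue); filled points were higher in m6A, open points were not, and black lines are medians. Medians of microRNA regions lie at 1.40 to 1.92 and those of box C/D and box H/ACA snoRNA regions at 0.13 to 0.68.

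Host regions of the first set of microRNAs printed above differed in their IgG reads. The FAM89A region with MIR1182, on chromosome 1 from 231155331 to 231155850, held 62 m6A against 0 IgG reads in 22Rv1 (at least 4.92), and smallest pairs of 63 against 5 in LNCaP and 62 against 5 in HPr1AR. The RABL6 region with MIR4292 on chromosome 9 held 81 m6A and 0 IgG reads in 22Rv1 (at least 5.30) and at least 61 m6A reads in each of LNCaP and HPr1AR. RABL6 encodes a RAB-like GTPase. The HEATR6 region with MIR4737 held a smallest pair of 60 m6A and 0 IgG reads in HPr1AR on chromosome 17 from 58120251 to 58121510. In 22Rv1 it held 67 against 3 (5.03). The VWA8 region with MIR5006 held 61 m6A against 7 IgG reads in LNCaP, 39 against 0 in 22Rv1 and a smallest pair of 62 against 2 in HPr1AR. The RUBCN region with MIR922 held 73 m6A and 3 IgG reads in 22Rv1 (5.15); RUBCN encodes the autophagy regulator rubicon. In LNCaP alone, SIPA1 with MIR4489 was listed, with a smallest pair of 62 m6A and 2 IgG reads (lower limit 4.22).

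MIR210, the microRNA gene best known for its induction by hypoxia, and its host MIR210HG were higher in all lines: 68 m6A against 1 IgG read in 22Rv1 (6.64, interval 4.11 to 11.96), with smallest pairs of 59 against 19 in LNCaP and 60 against 4 in HPr1AR. DGCR8, whose protein recognises primary microRNAs and which carries MIR1306 and MIR3618 itself, held 65 m6A and 6 IgG reads in 22Rv1 (3.99) and was higher in LNCaP and HPr1AR as well. ERBB2, the receptor kinase gene with MIR4728, held 50 m6A against 44 IgG reads in LNCaP (1.36, the nearest of 10 possible pairs), 76 against 12 in 22Rv1 (3.21) and a smallest pair of 68 against 10 in HPr1AR. EP300, a histone acetyltransferase gene with MIR1281, and TRIM25 with MIR3614 were higher in each line too. By contrast HNRNPK with MIR7-1 was not called in LNCaP (16 m6A against 51 IgG reads) nor in HPr1AR (37 against 107), and was not listed in 22Rv1.

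Of the 133 microRNA genes, 67 were listed in all 3 tables and 35 had a higher region in each; 22 were listed in HPr1AR alone, 7 in LNCaP alone, 6 in 22Rv1 alone and 12 in both cancer lines but not in HPr1AR. A region is listed where its windows passed the authors' filter, so a missing one is not shown to be unmethylated or unexpressed. MIR141 with MIR200C, epithelial microRNAs that repress the ZEB transcription factors, held 50 m6A against 22 IgG reads in LNCaP (2.36, interval 1.61 to 3.16) and 36 against 12 in 22Rv1 (2.13, interval 1.16 to 3.21). The MCM7 region with MIR106B, MIR25 and MIR93 held 36 m6A against 46 IgG reads in LNCaP (0.82, higher at an adjusted p of 0.0444 by the exact binomial test, the nearest of 7 possible pairs) and 37 against 57 in 22Rv1 (-0.08, not called).

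Regions listed in HPr1AR alone included MIR22 with MIR22HG, with a smallest pair of 62 m6A and 12 IgG reads, MIR29A with MIR29B1, with 31 against 10 (2.82, interval 1.76 to 4.02), and MIR221 with MIR222, with 22 against 11 (2.19, interval 1.085 to 3.38). MIR205 with MIR205HG, a microRNA of basal epithelium, was higher there with a smallest pair of 74 m6A and 113 IgG reads. MIR21 with VMP1 held 47 m6A and 86 IgG reads and was not called. COL17A1, the basal hemidesmosome collagen gene, with MIR936 had a smallest pair of 62 m6A and 13 IgG reads. These regions thus differed in ratio as well as in being listed in that line.

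All small RNA regions lower in m6A named a box H/ACA snoRNA or a Cajal body RNA, and none a box C/D snoRNA. SLC25A3, the mitochondrial phosphate carrier gene, with SNORA53 was lower in all 3 lines: 17 m6A against 74 IgG reads in LNCaP (log2 ratio -0.94, adjusted p 0.0406 by the exact binomial test), 13 against 48 in 22Rv1 and 22 against 88 in HPr1AR (-0.81, adjusted p 0.0488). IPO7, an importin gene, with SNORA23 was lower in 22Rv1, with 11 m6A and 51 IgG reads (-1.67, interval -2.75 to -0.71), and in HPr1AR, with 14 and 71. In LNCaP it held 21 and 70 reads and was not called. RPL5, a ribosomal protein gene, with SNORA66 was lower in LNCaP, with 5 m6A and 34 IgG reads, and in 22Rv1, with 1 and 16, and was not called in HPr1AR, with 6 and 36. KHDC4 with SCARNA4 (9 m6A, 37 IgG reads) and NCAPD2 with SCARNA10 (26 and 76) were lower in 22Rv1 alone. The LNCaP reads of SNORA53 were the nearest of 3 possible pairs. At an adjusted p of 0.01 the calls of SNORA53 and SNORA66 in LNCaP and of SNORA53 and SNORA23 in HPr1AR were lost.

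A few snoRNA regions stood well apart from these. C19orf48 with SNORD88C held 43 m6A and 0 IgG reads in LNCaP (at least 5.02), 46 against 30 in 22Rv1 (1.16) and 8 against 14 in HPr1AR, where it was not called. RPL10, a ribosomal protein gene, with SNORA70 held 20 m6A against 0 IgG reads in 22Rv1 (at least 3.28) and 40 against 1 in HPr1AR (6.51, interval 3.95 to 11.9). CHD8, a chromatin remodeller gene, with SNORD9 held 85 m6A and 4 IgG reads in 22Rv1 (4.96) and was higher in the other lines. LNCaP listed 10 regions over the IPW transcript with SNORD116 copies on chromosome 15, of which 1 was higher (SNORD116-13, 21 m6A and 11 IgG reads); 22Rv1 listed none and HPr1AR 1, not called. The SNORD116 copies are near-identical, and how reads were shared among them is not given in the sources used here.

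The clustered protocadherin genes, which encode neural adhesion proteins with a variable first exon joined to shared last exons, gave 2 regions in LNCaP, 4 in 22Rv1 and 5 in HPr1AR, all higher. The shared last exons of the gamma cluster, named for 22 genes on chromosome 5 from 140890511 to 140892510, held 52 m6A against 16 IgG reads in LNCaP (2.88, interval 2.05 to 3.79). In 22Rv1 the count was 21 against 3 (3.36, interval 1.61 to 5.74) and in HPr1AR 45 against 15 (2.775, interval 1.905 to 3.725). The widest variable-exon region of PCDHGA8 and PCDHGB4 had 27 m6A against 1 IgG read in LNCaP, 38 against 1 in 22Rv1 and 39 against 2 in HPr1AR, with log2 ratios of 5.93, 5.80 and 5.48. PCDHGC4 with PCDHGC5 was listed in HPr1AR alone, with 49 m6A and 0 IgG reads (at least 5.22). The alpha cluster's shared exons held 43 m6A against 4 IgG reads in 22Rv1 and 43 against 6 in HPr1AR. Reads of shared exons cannot be assigned to single cluster genes.

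UGT1A genes, which encode glucuronosyltransferases that conjugate steroids and drugs, likewise share their last exons. Their 5 regions were listed in HPr1AR alone, 3 of them higher. The highest lay on chromosome 2 from 234678161 to 234678470, with 32 m6A against 0 IgG reads (at least 4.61). The region with the last exon held 10 m6A and 4 IgG reads (2.51, adjusted p 0.0117 by the exact binomial test), and those farthest upstream, with 6 against 6 and 6 against 7, were not called.

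Neighbours whose symbols share their letters were classed as paralogs by symbol alone, which does not show common descent. They formed 50 members in LNCaP, 43 in 22Rv1 and 54 in HPr1AR, of which 33, 29 and 38 were higher (66.0%, 67.4% and 70.4%). Of all regions 36.5%, 54.4% and 38.0% were higher. The pairs with the highest lower limits were ZNF580 with ZNF581 in LNCaP, ZNF10 with ZNF268 in 22Rv1 and FAM156A with FAM156B in HPr1AR. ZNF223 with ZNF284 held 60 m6A and 1 IgG read in 22Rv1 on chromosome 19 from 44570251 to 44571460 (6.45, interval 3.92 to 11.8), with smallest pairs of 61 against 1 in LNCaP and 63 against 2 in HPr1AR. ZNF10 with ZNF268 held 55 against 0 in 22Rv1 (at least 4.74). ZNF580 with ZNF581 had a smallest pair of 63 m6A and 0 IgG reads in LNCaP. AOC2 with AOC3, amine oxidase genes, was listed in LNCaP alone, with a smallest pair of 64 m6A and 1 IgG read. HOXA5 with HOXA6, homeobox transcription factor genes, held 53 m6A against 1 IgG read in HPr1AR (6.92, interval 4.38 to 12.2) and 74 against 6 in 22Rv1 (4.17). CGB7 with CGB8 and NTF4 held 52 against 0 in HPr1AR. FAM156A with FAM156B had a smallest pair of 60 m6A and 0 IgG reads in HPr1AR. These 2 genes, like the NBPF and CDK11 pairs, are near-identical copies and their reads cannot be placed with certainty.

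Some paralog pairs were not called. RBM5 with RBM6, RNA-binding protein genes, had 2 regions in each line and none was called, with 9 m6A against 18 IgG reads in the more deeply read LNCaP region. ARPC1A with ARPC1B, actin nucleation genes, was called in 1 of 3 HPr1AR regions, with 35 m6A and 42 IgG reads (0.93), and in none of the 2 regions in LNCaP or 22Rv1.

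Pairs with a non-coding RNA gene numbered 30 in LNCaP, 23 in 22Rv1 and 34 in HPr1AR, and 18, 17 and 22 were higher. These were 60%, 73.9% and 64.7%, against 36.5%, 54.4% and 38.0% of all regions. LINC00921 with the zinc finger gene ZNF263 held 42 m6A against 1 IgG read in LNCaP (6.57) and the same reads in HPr1AR (6.58), and 35 against 1 in 22Rv1. ALG1, a mannosyltransferase gene of protein glycosylation, with NAGPA-AS1 held 25 against 0 in LNCaP, 34 against 0 in 22Rv1 and 30 against 1 in HPr1AR. MORN1 with LOC100129534 held 57 against 0 in 22Rv1 (at least 4.80), its only table. NFE2L2, which encodes the oxidative stress regulator NRF2, with LOC100130691 was listed in HPr1AR alone, with 42 m6A and 1 IgG read on chromosome 2 from 178187791 to 178188120 (6.58, interval 4.03 to 11.9).

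RCC1, the Ran exchange factor gene, with the snoRNA host SNHG3 was higher in one line and lower in another. On chromosome 1 from 28831831 to 28834840 LNCaP held 54 m6A and 68 IgG reads (0.84, interval 0.30 to 1.38, adjusted p 0.00724 by the exact binomial test), although 9 pairs of reads met the rule there. The 22Rv1 region, from 28834461 to 28835860, held 27 and 75 reads (-0.93, interval -1.62 to -0.27, adjusted p 0.00879 by the same test). The LNCaP region that covers most of it, from 28834831 to 28837830, held 36 and 67 reads and was not called. Both HPr1AR regions were not called. The higher and the lower region overlap only at their ends, and the difference between the lines was not tested. FNIP1 with RAPGEF6 had a lower region in HPr1AR, with 1 m6A and 19 IgG reads, at another place than its higher regions, which held 13 against 1 in LNCaP, 15 against 1 in 22Rv1 and 30 against 6 in HPr1AR.

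The remaining pairs, mostly protein-coding neighbours, numbered 458 in LNCaP, 413 in 22Rv1 and 496 in HPr1AR, and 297, 270 and 318 were higher (64.8%, 65.4% and 64.1%). Of all regions 36.5%, 54.4% and 38.0% were higher. The other exon regions of the same genes, which name 1 gene, were higher in 40.9%, 49.0% and 43.7%, and were narrower, with medians of 41, 35 and 39 windows beside 102.5, 77 and 85.5 for the pairs. The part of width in this difference was not tested. Where the pair joined an end and a start, 86.8%, 88.2% and 87.2% were higher, at medians of 264, 226.5 and 264 windows. Of all pairs of this class with more than 120 windows, at any position, 92.6%, 93.6% and 89.9% were higher. USF1, a transcription factor gene, with ARHGAP30 led the sets listed in all 3 lines, with 67 m6A against 1 IgG read in 22Rv1 on chromosome 1 (6.61, interval 4.09 to 11.9) and smallest pairs of 61 against 2 in LNCaP and 59 against 1 in HPr1AR. ALKBH3, a nucleic acid demethylase gene, with the pseudogene SEC14L1P1 had no IgG read in its representing window in any line. That window held 41 m6A reads in LNCaP, 51 in 22Rv1 and 27 in HPr1AR, or at least 4.95, 4.64 and 4.36. CKLF, a chemokine-like factor gene, with CMTM1 held 77 against 2 in 22Rv1 (5.81, interval 3.91 to 8.89).

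Regions with 0 IgG reads that led a line in this class included PRICKLE4 with TOMM6, a subunit of the mitochondrial import pore, with 52 m6A reads in 22Rv1 (at least 4.66), and HAUS7 with the exonuclease gene TREX2, with 45 in HPr1AR (at least 5.10). LRG1 with PLIN5, a lipid droplet protein gene, had a smallest pair of 62 m6A and 0 IgG reads in LNCaP. The smallest pair also had 0 IgG reads for PWP2 with GATD3A in LNCaP and A1BG with ZNF497 in HPr1AR, with 60 m6A reads each. Larger pairs with IgG reads are possible there. The lower regions of this class were FNIP1 with RAPGEF6, given above, and FIP1L1 with PDGFRA, a region of 2 windows with 0 m6A and 9 IgG reads in 22Rv1 (adjusted p 0.0352 by the exact binomial test).

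Most members recurred between lines. Of the LNCaP members 89.5% overlapped a member of another line by at least 1 bp, of the 22Rv1 members 93.8% and of the HPr1AR members 82.5%. Of the 923 symbol sets, 505 were listed in all 3 tables, 201 in 2 and 217 in 1; 76 of the last were in LNCaP, 44 in 22Rv1 and 97 in HPr1AR. Taking the region with the most reads of each set, 295 of the 505 were higher in all 3 lines, 93 were not called in any, and SLC25A3 with SNORA53 was the 1 set lower in all. Higher in exactly 2 lines were 61 sets and in exactly 1 line 49, of which 32 were in HPr1AR, the line with the greatest depth, 9 in LNCaP and 8 in 22Rv1. The tables share no samples. Overlap and shared calls were not counted for other regions, and members were wider than single-gene exon regions. Recurrence is therefore not shown to be particular to the members.

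The rebuilt depths were 3.92 M m6A and 8.87 M IgG reads in LNCaP, 3.299 M and 4.82 M in 22Rv1, and 5.13 M and 11.7 M in HPr1AR, and every ratio rests on them. Coordinates are given as the files list them. The submitters' processing notes name hg38, yet 7.14%, 7.43% and 7.25% of the gene and region pairs of members in LNCaP, 22Rv1 and HPr1AR lay within their gene's GRCh38 span, so the build is not settled and no sequence was read by these coordinates.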

How the data were processed

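RNA from m6A and IgG pull-downs was read as paired 50 bp ends, per the labels' protocols; 3 cultures per group were stated there, while the labels used here list 2 m6A samples of 22Rv1, and which samples entered its table is not given in the sources used here. The authors deposited 1 table per line with a log2 fold, a p-value, an adjusted p-value and gene marks for each region, per the file headers. Other deposited columns, read here as other values, count the windows up and down in a region. The sources used here give neither aligner, window counter nor test, and not the numerator, which was taken as m6A from the tables' names. The submitters' processing notes name hg38. Per-sample columns left unused numbered 0.

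The deposited log2 fold was the log2 of the m6A reads less 2 times the log2 of the IgG reads, each with a small added prior and up to a constant, so that the deposited p-value passes almost every region. Reads were rebuilt from fold and p-value with the p-value scale as a smooth curve of the reads, for 98.0% of LNCaP regions with p above 0 and 99.999% of those of 22Rv1 and HPr1AR. More than 1 pair met the rule in 3443, 137 and 200 regions, and the nearest was taken. After shifting the folds at random, pairs were still found for 7.53%, 0.681% and 0.245%, so LNCaP counts are the least certain. Where p was listed at 0 (6737, 135 and 8613 regions) the smallest pair was taken, and its ratio is a lower bound. Depths follow from the fitted constants and were not checked against sequenced reads. The exact binomial test and its Benjamini-Hochberg adjustment measure counting error within a table, not the spread between samples. Ratios carry 95% exact intervals, and 3 reads stand in for a count of 0. The method was tested on simulated data. Python 3.11.15, SciPy 1.17.1 and pandas 2.3.3 were used.

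Members, classes and gene lists were chosen with earlier results of these data known. Classes went by symbol, in the order readthrough, nested small RNA, gene cluster, paralogs, non-coding RNA, other pairs. Named regions were those with the highest lower limit (4 per class and line) or lowest upper limit (2), the 6 sets leading in all lines, fixed loci and sets with opposite calls; other microRNA, snoRNA and paralog regions, TMED7, GNG10, RDH14, IPW, RBM5 and ARPC1A were named after their values were seen. Of the members' symbols 98.9% matched RefSeq names.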

Additional observations from a re-analysis of the deposited data

How the results depend on the processing

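No paired analysis was possible because the tables hold no value per sample, and for the same reason no sample was left out in turn. At an adjusted p of 0.01, with members of 1 solution, with those above the shared read rate, with the fewest reads and with a 12% window for the p-value scale, every share of members higher stayed within 1.5 times its value. By the authors' deposited adjusted p the share was 98.9% in LNCaP, 99.9% in 22Rv1 and 99.4% in HPr1AR. Exon marks without promoter marks gave median log2 ratios of 1.18, 1.55 and 1.21 over 431, 357 and 492 regions. The medians of all regions were 1.18, 2.10 and 1.22. In HPr1AR the median was 1.57 with 1 solution only and 2.19 above the shared read rate, and 73.3% of readthrough sets were higher with 1 region per set.

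Centring on the median of all regions (1.18, 2.10 and 1.22 log2 units) lowered the members' share higher to 35.8% in LNCaP, 21.2% in 22Rv1 and 35.6% in HPr1AR. It gave 28.0%, 17.3% and 28.6% of readthrough regions, 18.5%, 10.2% and 26.8% of nested small RNA regions, 30.8%, 16.9% and 39.4% of microRNA regions and 5.43%, 2.63% and 12.64% of snoRNA regions. In 22Rv1 it gave 27.9% of paralog, 43.5% of non-coding, 26.2% of other pair and 36.3% of end-to-start regions, and in HPr1AR 40.7% of paralog regions. It also made 31 of 92, 52 of 76 and 28 of 87 snoRNA regions lower. Of the named regions 11 lost their call at 0.01 and none changed direction. Overlap shares moved by less than 1.5 times under a reciprocal overlap of 50% or by symbols alone. The centring, the 12% window and the p-value scale as a curve of the reads were chosen after seeing the data. Apart from the smaller sets of regions and the shifted zero, the cause of these moves was not tested.

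The effect of depth was not tested. 22Rv1, the line of least rebuilt depth, had the highest share of all regions called higher (54.4%).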
